A study of Rattus norvegicus with 48 samples.

Results

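A set of 10 genes of the ionotropic glutamate receptors was followed in the adult male rat brain: the AMPA receptor subunits Gria1, Gria2, Gria3 and Gria4, the AMPA receptor auxiliary subunit Cacng2, and the NMDA receptor subunits Grin1, Grin2a, Grin2b, Grin2c and Grin2d. Members were the probe sets annotated with 1 of these symbols, and each of the 10 genes had 1 probe set among the 27342 probe sets and 14324 gene symbols of the arrays. AMPA receptors are tetramers of GluA subunits that carry most of the fast excitatory current in the forebrain, and auxiliary proteins such as Cacng2 bring them to the synapse. NMDA receptors combine the obligatory subunit encoded by Grin1 with GluN2 subunits, and their calcium entry upon coincident activity drives synaptic plasticity in the hippocampus, amygdala and cortex. The GluN2 subunit in a receptor sets its kinetics, its conductance and its block by magnesium.

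The animals were F3 generation Sprague-Dawley males of a vinclozolin lineage (Vin), which descended from F0 mothers injected with the fungicide vinclozolin at 100 mg/kg/day on embryonic days 8 to 14 of gestation, or of a control lineage (Con) from F0 mothers injected with the vehicle DMSO. Within each lineage, stressed rats (St) were restrained for 6 h a day over 21 days, from postnatal day 23 to 43, and the other rats were not restrained (NSt). The F3 males came from untreated F2 rats, and each Vin rat was housed with 1 Con rat as a dyad until death at 120 days. Punches of 2 mm were taken from CA3, CA1, motor cortex (CRTX, primary and secondary) and basolateral amygdala (BLA), and the 4 groups St-Vin, NSt-Vin, St-Con and NSt-Con had 3 arrays per area. Each array held RNA pooled from 4 animals, and the same 4 dyads supplied the Vin pool and the Con pool of a dyad group in all 4 areas. There were thus 12 pools in 6 dyad groups, of which 3 were stressed and 3 were not. The p-values of lineage and stress differences below measure the spread between these pools, not between single animals. Those of differences between areas, with the pool as a block, measure how the area differences vary from pool to pool.

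Of the 48 arrays, 46 were used. The array CRTX NSt-Vin 2 and the array CA1 St-Con 3 equalled the mean of the other 2 arrays of their group on every probe set within 0.0051 log2 units, and so added no measurement. Array medians averaged 7.37 in CA3, 7.13 in CA1, 6.78 in CRTX and 7.10 in BLA on the deposited log2 scale, with a range of at most 0.06 within an area, so the 4 areas did not share 1 scale. Every comparison of areas below is therefore given on the deposited values and relative to the array median, and a direction is called only where it also held after quantile normalization of all arrays. The areas were scanned on 5 days, and only BLA and part of CRTX shared a day, so area and scan day otherwise cannot be told apart. Marker lists were highest under the amygdala and cortex labels: 4 BLA markers averaged 1.39 above the array median in BLA, against 0.29 to 0.69 in the other areas, and 4 cortical layer markers averaged 0.67 in CRTX, against 0.21 to 0.41. Single markers did not all follow their list. Relative to the median, Cyp26b1 was highest in BLA and Fezf2 in CRTX, but Rspo2, listed for BLA, was highest in CA3 (2.31, against 1.49 in BLA). Of the cortical layer markers, Cux1 was highest in BLA (0.107, against 0.021 in CRTX) and Ccn2 in CA1 (0.562, against 0.545 in CRTX). The CA1 and CA3 labels were not separated in this way. The 6 CA1 pyramidal markers averaged 1.83 above the median in CA3 arrays and 1.53 in CA1 arrays, and the 9 markers of CA3 and CA2 pyramidal cells averaged 0.98 in CA3 arrays and 0.85 in CA1 arrays. Dentate granule markers (5 genes) averaged 0.87 in CA3 arrays and 0.25 in CA1 arrays. The arrays labelled CA1 are called CA1 here, with that limit. Choroid plexus markers exceeded their area mean by over 0.6 in 5 arrays (CA3 NSt-Con 3, CA1 NSt-Con 2 and 3, CRTX NSt-Con 1 and BLA St-Vin 3), and 15 striatal markers ranged from 0.39 to 2.64 above the median among BLA arrays.

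The largest differences of the receptor genes lay between areas. Relative to the array median, the span between the highest and the lowest area mean was 1.35 for Cacng2 (2.55-fold), 0.95 for Gria1, 0.94 for Grin2a and 0.26 for Grin2b, the smallest. The median span of the 10 members was 0.60, against 0.37 over all 27342 probe sets. These spans were not matched for signal level: Gria1, Gria2, Gria3, Gria4, Grin1, Grin2a and Grin2b lay at percentile 92.97 or above of mean level. In bulk punches like these, fewer cells of a type and less RNA per cell cannot be told apart.

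Among the AMPA subunits, Gria1 set the motor cortex apart. Gria1 encodes GluA1, the subunit whose insertion into synapses follows activity. Its deposited log2 signal had a lowest, median and highest value of 11.81, 12.04 and 12.18 in CA3, 11.06, 11.64 and 12.03 in CA1, 10.27, 10.49 and 10.62 in CRTX, and 11.04, 11.23 and 11.45 in BLA. All 11 CRTX arrays lay below every array of the other areas. In limma with the pool as a block, Gria1 was lower in CRTX than in BLA by 0.75 ± 0.07 log2 (SE, 11 pools, adjusted p = 2.36e-12) and by 0.42 relative to the array median. It was higher in CA3 than in CRTX by 1.53 ± 0.07 (adjusted p = 1.13e-21), or 0.94 relative to the median. CA3 was also above BLA, by 0.78 and 0.52 on the 2 scales, and above CA1, by 0.44 and 0.20. Relative to the median, Gria1 was higher in CA3 than in CA1 in 7 of 11 pools and lower in 4. The difference of CA1 from BLA, 0.34 deposited and 0.31 relative to the median, was 0.11 after quantile normalization, so these neighbours in the order were not separated under every scaling.

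Gria2 encodes GluA2, whose edited form makes the AMPA channel impermeable to calcium. It averaged 12.21 ± 0.05 in CA3 (SD, n = 12), 11.81 ± 0.08 in CA1 (n = 11), 11.51 ± 0.04 in CRTX (n = 11) and 11.62 ± 0.07 in BLA (n = 12). CA3 was highest under each scaling, by 0.12 over CRTX, 0.33 over BLA and 0.16 over CA1 relative to the median. The order of CA1, CRTX and BLA was not fixed: CRTX was 0.11 below BLA on the deposited values and 0.22 above it relative to the median.

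Gria3 and Gria4 encode GluA3, a partner of GluA2, and GluA4, a subunit with fast kinetics that is prominent in interneurons. Both had their highest level relative to the median in CRTX, at 4.03 ± 0.07 for Gria3 and 3.26 ± 0.12 for Gria4 (SD, n = 11). Against BLA, Gria3 was higher in CRTX by 0.17 ± 0.06 deposited (adjusted p = 0.017) and by 0.49 relative to the median, and Gria4 by 0.29 ± 0.07 (adjusted p = 3.74e-04) and 0.61. The 7 neuron markers also lay higher in CRTX, averaging 11.11 in CRTX and 10.60 in BLA as deposited, and 4.325 and 3.501 relative to the median. They moved the same way as the members higher in CRTX than in BLA, which were Gria3, Gria4, Cacng2, Grin1 and Grin2a, and their part in these differences was not tested. Gria3 was lower in CA1 than in CRTX by 0.14 deposited (adjusted p = 0.037) and by 0.50 relative to the median. The differences of CA3 from CRTX changed with the scale: Gria4 was 0.04 higher in CA3 as deposited and 0.55 lower relative to the median, and Gria3 was 0.02 lower and 0.61 lower.

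Cacng2, which encodes stargazin, the AMPA receptor auxiliary subunit that carries receptors to the membrane and slows their closing, had its highest mean in CRTX and its lowest in BLA. Its lowest, median and highest deposited log2 signals were 7.88, 8.01 and 8.31 in CA3, 7.02, 7.74 and 7.99 in CA1, 7.83, 8.18 and 8.44 in CRTX, and 6.69, 7.22 and 7.47 in BLA. Every CRTX array and every CA3 array lay above every BLA array. Cacng2 was higher in CRTX than in BLA by 1.03 ± 0.07 log2 (SE, 11 of 11 pools, adjusted p = 5.37e-15) and by 1.36 relative to the median, at percentile 99.6 of all probe sets, with the neuron markers higher too. The difference was 1.03 over the arrays of scan day 1 alone and 1.15 over the dyad groups whose BLA arrays were low in striatal markers. It was higher in CA3 than in BLA by 0.92 and 0.65 on the deposited and centred scales, in CA1 than in BLA by 0.46 and 0.43, and in CA3 than in CA1 by 0.46 and 0.22. CA1 lay below CRTX by 0.57 and 0.93, and CA3 by 0.12 (adjusted p = 0.13) and 0.70. Between CRTX and BLA, Cacng2 thus went the other way from Gria1.

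The promoters of 3 members with opposite area patterns are printed because CRTX stood at the top of the order for Cacng2 and at the bottom for Grin2c and Grin2d. The sequences are RefSeq's, on build GRCr8, 300 bases around the gene start, most of them before it, read 5′ to 3′ on the minus strand that holds each gene: chr7:111577708-111578007 for Cacng2, chr10:101005089-101005388 for Grin2c and chr1:105481187-105481486 for Grin2d. Gria4, Grin1, Grin2c, Grin2d and Cacng2 matched that table by symbol, 5 of the 10 members. Capitals mark matches, on either strand, to the TATA box letters TATAAA, the GC box letters GGGCGG or the cyclic AMP response element TGACGTCA, and no match overlaps another here.
Cacng2: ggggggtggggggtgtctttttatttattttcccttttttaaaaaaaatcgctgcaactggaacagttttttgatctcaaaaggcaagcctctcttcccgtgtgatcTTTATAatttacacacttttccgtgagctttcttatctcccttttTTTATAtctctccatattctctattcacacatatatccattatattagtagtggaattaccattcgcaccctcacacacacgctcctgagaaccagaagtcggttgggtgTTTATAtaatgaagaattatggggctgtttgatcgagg
Grin2c: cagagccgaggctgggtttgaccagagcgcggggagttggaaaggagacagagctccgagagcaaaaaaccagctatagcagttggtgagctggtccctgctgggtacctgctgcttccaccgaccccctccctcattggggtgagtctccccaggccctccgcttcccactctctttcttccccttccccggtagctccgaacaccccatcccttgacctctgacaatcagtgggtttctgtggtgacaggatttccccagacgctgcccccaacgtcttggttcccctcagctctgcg
Grin2d: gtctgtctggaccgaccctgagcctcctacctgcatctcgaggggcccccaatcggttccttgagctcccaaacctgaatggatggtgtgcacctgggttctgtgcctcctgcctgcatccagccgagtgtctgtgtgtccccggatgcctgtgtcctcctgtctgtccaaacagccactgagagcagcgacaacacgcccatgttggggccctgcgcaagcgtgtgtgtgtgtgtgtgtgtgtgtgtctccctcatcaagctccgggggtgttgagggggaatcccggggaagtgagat
The Cacng2 window held 3 matches to the TATA box letters, all on the other strand and so written TTTATA, and 39.0% G and C, while the Grin2c and Grin2d windows held none of the 3 motifs and 60.3% and 60.7% G and C. The windows of Gria4 and Grin1, which like Cacng2 were highest in CRTX relative to the median, held 60.3% and 59.7% G and C, close to Grin2c and Grin2d, and no TATA box letters, and Grin1 had 1 match to the GC box letters. Over 27457 rat promoters of that length the median was 52.33% G and C, and 14.3% held the TATA box letters, 34.9% the GC box letters and 1.91% the cyclic AMP response element on either strand.

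Grin1, the subunit that every NMDA receptor needs, averaged 10.14 ± 0.11 in CA3 (SD, n = 12), 9.89 ± 0.11 in CA1 (n = 11), 9.91 ± 0.06 in CRTX (n = 11) and 9.64 ± 0.10 in BLA (n = 12), the lowest as deposited. It was higher in CRTX than in BLA by 0.27 ± 0.04 (adjusted p = 1.18e-08) and by 0.59 relative to the median. This was less than the difference of the neuron markers on either scale, as it also was for Gria3, Gria4 and Grin2a. Cacng2 differed by more than these markers. For Grin1, CA3 was 0.23 above CRTX as deposited but 0.36 below it relative to the median. No other pair of areas kept its call for Grin1 under all 3 scalings.

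Grin2a and Grin2b encode the main GluN2 subunits of the forebrain, with GluN2A gaining on GluN2B as synapses mature. Grin2a differed most between CA3 and BLA. Its lowest, median and highest deposited log2 signals were 10.38, 10.64 and 10.80 in CA3, 9.72, 10.19 and 10.30 in CA1, 9.58, 9.72 and 9.84 in CRTX, and 9.15, 9.45 and 9.87 in BLA. As deposited, all CA3 arrays lay above all BLA and CRTX arrays, while 1 BLA array (NSt-Con 2, 9.87) reached into the CA1 range. Relative to the median, CA3 (lowest 3.00) still lay above BLA (highest 2.75) but overlapped CRTX (highest 3.05). Grin2a was higher in CA3 than in CRTX by 0.89 deposited and 0.30 relative to the median. Grin2a was higher in CA3 than in BLA by 1.20 ± 0.06 (12 of 12 pools, adjusted p = 2.06e-19) and by 0.94 relative to the median. The CA1 and CRTX differences from BLA were 0.71 and 0.31 deposited, and 0.68 and 0.63 relative to the median.

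Grin2b varied little, with centred means of 2.91 in CA3, 2.82 in CA1, 2.68 in CRTX and 2.65 in BLA. It was higher in CA3 than in CRTX (0.81 deposited, 0.22 centred) and in CA1 than in CRTX (0.47 and 0.12) under all 3 scalings. The log2 signal of Grin2a minus that of Grin2b, taken within an array so that scaling cancels, was higher in CRTX than in BLA by 0.59 ± 0.18 (SD, 11 of 11 pools), in CA1 than in BLA by 0.50 ± 0.10 (11 of 11 pools) and in CA3 than in BLA by 0.68 ± 0.20 (12 of 12 pools). The amygdala thus held the lowest Grin2a signal relative to Grin2b. Gria1 minus Gria2 was lower in CRTX than in BLA by 0.65 ± 0.18, in 11 of 11 pools, and higher in CA3 than in CRTX by 0.83 ± 0.10, in 11 of 11 pools. These ratios compare an array's own probe sets between areas and do not rank 1 gene against another.

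Grin2c and Grin2d encode GluN2C and GluN2D, which give receptors of low conductance that magnesium blocks weakly. Grin2c, best known from the cerebellum and also found in astrocytes, ranged from 8.04 to 8.52 in CA3, 7.82 to 8.26 in CA1, 7.06 to 7.37 in CRTX and 7.83 to 8.02 in BLA. All 11 CRTX arrays lay below the rest. Grin2c was lower in CRTX than in BLA by 0.72 ± 0.05 (adjusted p = 1.27e-15) and by 0.39 centred, and higher in CA3 and CA1 than in CRTX by 1.12 and 0.84, or 0.53 and 0.49 centred. Astrocyte markers (6 genes) moved with it, averaging 2.87 above the median in CA3, 2.68 in CA1, 2.04 in CRTX and 2.40 in BLA, and their part in the result was not tested.

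Grin2d, a subunit of young neurons and adult interneurons, also had its lowest level in CRTX. Its lowest, median and highest values were 6.82, 6.89 and 6.98 in CA3, 6.41, 6.53 and 6.67 in CA1, 5.88, 5.93 and 6.05 in CRTX, and 6.64, 6.79 and 6.91 in BLA. No CRTX array overlapped another area. The signal relative to the array median was negative in every area, at -0.47 in CA3, -0.60 in CA1, -0.84 in CRTX and -0.32 in BLA, and its distance from background was not measured here. The difference of CRTX from BLA was -0.85 ± 0.03 deposited (0 of 11 pools higher, adjusted p = 1.76e-22) and -0.53 centred. BLA was the highest area relative to the median: Grin2d was lower in CA1 than in BLA by 0.25 deposited and 0.28 centred, whereas CA3 was 0.11 above BLA as deposited and 0.15 below it centred. The 8 interneuron markers did not follow this order, averaging 1.50 above the median in CA3, 1.53 in CA1, 1.86 in CRTX and 1.63 in BLA.

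**Figure D1:**
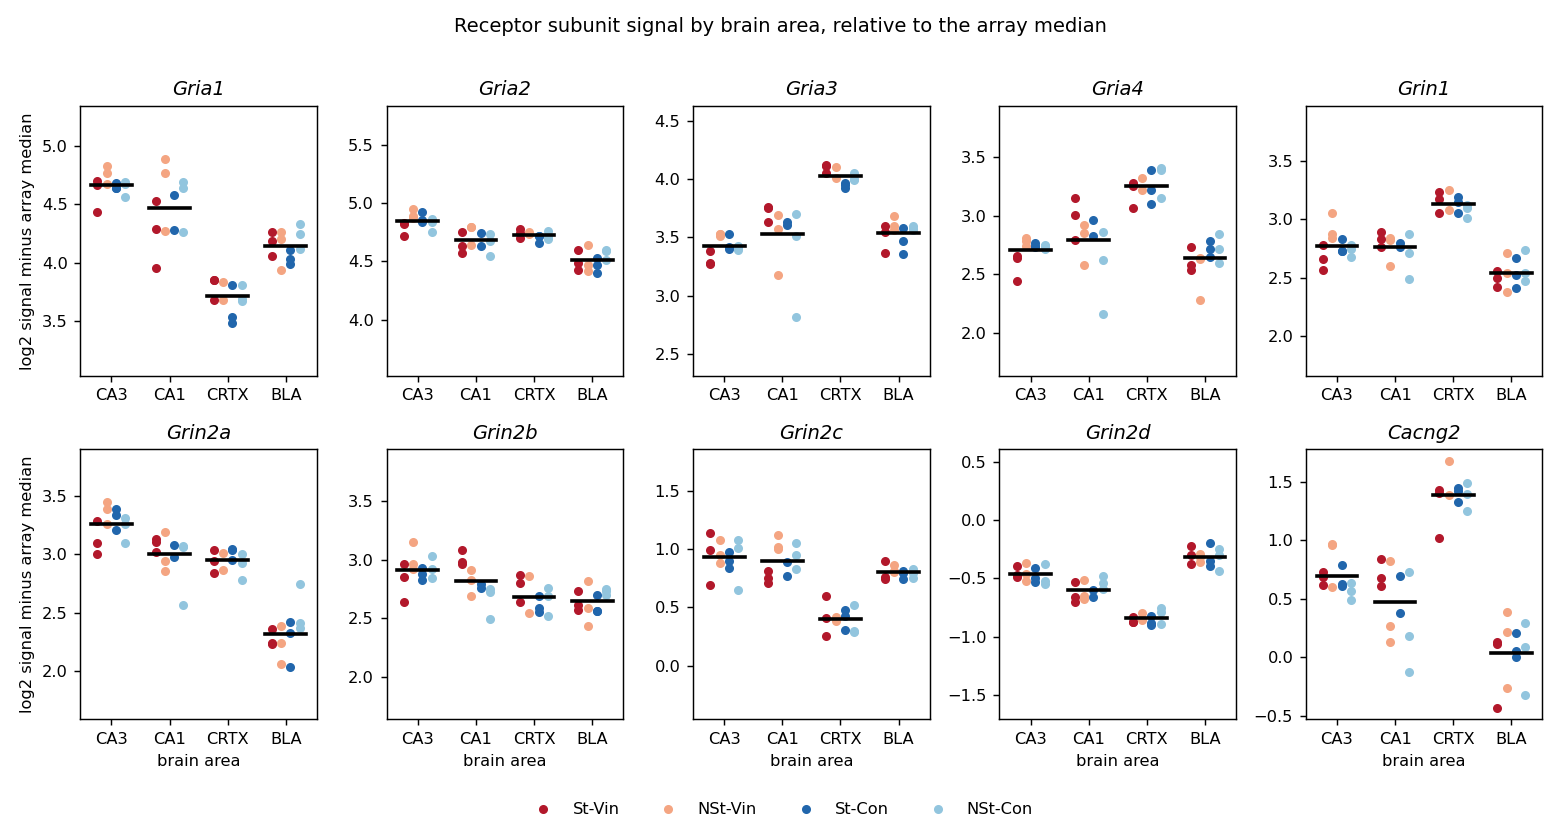
Each point is 1 array, with brain area on the x axis and the log2 signal minus the array's median on the y axis, every panel spanning the same number of log2 units. Black lines are area means over 11 or 12 arrays. Cacng2 is highest and Gria1, Grin2c and Grin2d are lowest in CRTX, and Grin2a is lowest in BLA.

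Most probe sets differed between areas, so the counts of members say little by themselves. With the same direction past an adjusted p of 0.05 under all 3 scalings, 5 members were higher and 3 lower in CRTX than in BLA, where 17% and 22.8% of all probe sets met the same rule. The other pairs gave 2 higher and 1 lower in CA1 than in BLA (34.8% and 20.7% of probe sets), 4 higher and 0 lower in CA3 than in BLA (34.4% and 8.59%), and 4 higher and 2 lower in CA1 than in CRTX (24.7% and 4.5%). In CA3 against CRTX, 6 were higher and 0 lower (25.4% and 2.63%), and in CA3 against CA1, 5 were higher and 0 lower (23.1% and 8.52%). On the deposited values alone, 10 of 10 members were higher in CA3 than in BLA, beside 78.8% of probe sets.

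The other genes of the glutamate synapse were 53 genes in 6 lists: other receptor subunits, auxiliary subunits, scaffold, kinases and phosphatases, glutamate handling and extracellular organisers. Under all 3 scalings, 8 of the 53 were higher and 12 lower in CRTX than in BLA, beside 17% and 22.8% of all probe sets. In CA3 against BLA, 22 were higher and 4 lower, beside 34.4% and 8.59% of all probe sets. Of the 8 auxiliary subunits, Cacng7 was higher in CRTX than in BLA (0.38 deposited, 0.71 centred), while Cacng5, Cnih2 and Cacng4 were lower (-1.40, -0.71 and -0.66 deposited, and -1.08, -0.39 and -0.34 centred). Cacng7 and Cacng5 are type II relatives of stargazin, and Cnih2 is a cornichon protein that slows AMPA receptor closing. Cacng3, Cacng8, Neto1 and Neto2 had no call under all 3 scalings between these areas. Grik4, the kainate receptor subunit known for its place in CA3, was higher in CA3 than in BLA by 1.87 deposited and 1.61 centred, and in CA1 than in BLA by 1.39 and 1.36.

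Within CA1, Gria1, Gria3 and Cacng2 spread more widely than in the neighbouring CA3. The SD over the 11 CA1 arrays was 0.28 for Gria1, 0.28 for Gria3 and 0.32 for Cacng2, against 0.09, 0.08 and 0.14 in CA3. It was close in both areas for Grin1 (0.112 in CA1 and 0.111 in CA3) and Grin2c (0.145 and 0.144). Among non-stressed CA1 arrays, Gria1 read 11.44, 11.88 and 12.03 in the NSt-Vin arrays of dyad groups 1, 2 and 3, and 11.38, 11.79 and 11.84 in the NSt-Con arrays of the same dyad groups. Cacng2 read 7.99, 7.38 and 7.27 in those NSt-Vin arrays and 7.85, 7.33 and 7.02 in the NSt-Con arrays. Dyad group 1 was thus low in Gria1 and high in Cacng2 in both lineages, and dyad group 3 the reverse. Gria3 and Gria4 were lowest in the NSt-Con array of dyad group 3, at 9.97 and 9.31, below every other CA1 array.

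Over the 11 CA1 arrays, Gria1 had a Pearson r of -0.85 with Cacng2, and Gria3 had 0.93 with Gria4 and 0.91 with Grin1. Marker lists moved with them: Gria1 had 0.83 with the dentate granule cell list, 0.86 with the list of CA3 and CA2 pyramidal cells, -0.61 with the CA1 pyramidal list, -0.84 with the cortical layer list and -0.81 with the myelin list, and Gria4 had 0.95 with the interneuron list and -0.89 with the choroid plexus list. These 11 points share dyads, a punch and a scaling, and the part of neighbouring tissue in the receptor values was not tested. The dentate list ranged from 6.79 to 7.59 in St-Vin arrays, 7.35 to 8.27 in NSt-Vin, 7.21 to 7.32 in St-Con and 7.36 to 7.56 in NSt-Con. The choroid list (14 genes) read 9.74 in the NSt-Con array of dyad group 3, against 6.48 to 8.22 in the other CA1 arrays.

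**Figure D2:**
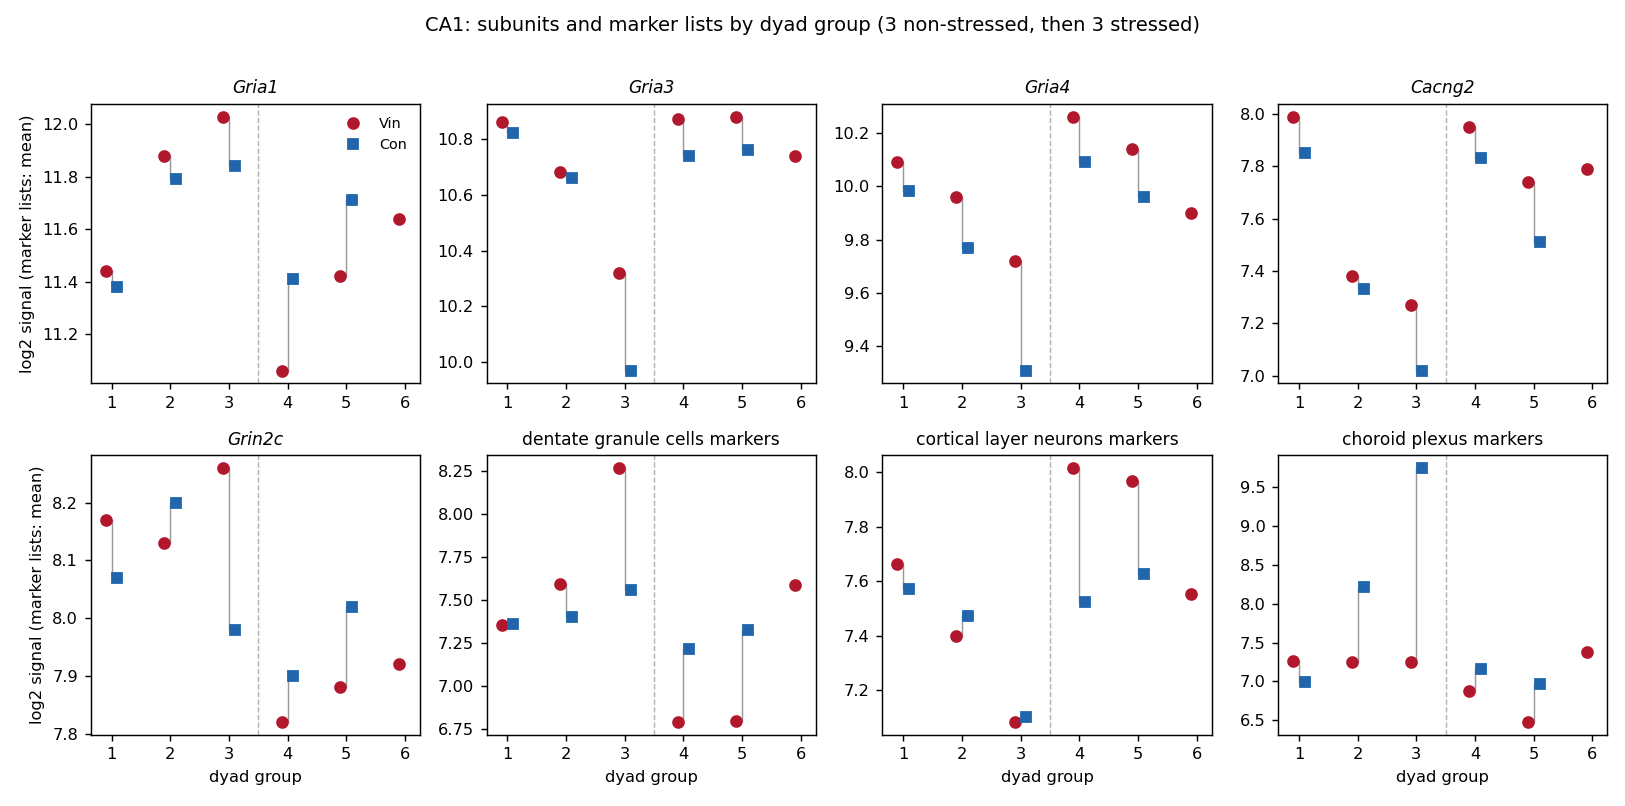
The x axis is the dyad group (1 to 3 non-stressed, 4 to 6 stressed) and the y axis is the log2 signal of a CA1 array, or the mean log2 signal of a marker list. Red circles are Vin pools and blue squares Con pools, and a grey line joins the pools of 1 dyad group. Among dyad groups 1 to 3, Gria1 is lowest where Cacng2 is highest in both lineages, and dyad group 6 has only its Vin array.

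In BLA, Cacng2 was lowest in dyad groups 3 and 6, at 6.87 and 6.69 in the Vin arrays and 6.78 and 7.11 in the Con arrays, against 7.16 to 7.47 in the other 8 arrays. The striatal list read 7.76 and 7.51 in those Vin arrays and 7.51 and 7.61 in the Con arrays, against 7.85 to 9.75 in the others. The Pearson r of Cacng2 over 12 BLA arrays was 0.68 with the striatal list, 0.80 with the interneuron list and -0.81 with the choroid list, which read 7.30 in St-Vin 3 and 6.26 to 6.64 in the other BLA arrays. Grin2a in BLA had an r of 0.93 with the 6-gene CA1 list and 0.26 with the striatal list.

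The study's comparison of lineages asks whether descent from an exposed F0 mother is seen in adult brain, with or without restraint in adolescence. No receptor gene passed an adjusted p of 0.05 in limma for any lineage difference: 0 of 10 members in NSt rats, in St rats or on average in each of the 4 areas, beside 0% of probe sets in all 12 comparisons. At an unadjusted p under 0.05 there were 2 members in CA3, 0 in CA1, 0 in CRTX and 2 in BLA for NSt-Vin against NSt-Con, beside 5.38%, 3.28%, 5.68% and 2.09% of probe sets. For St-Vin against St-Con there were 2, 1, 2 and 0 members in the same areas, beside 4.18%, 4.97%, 6.04% and 2.58%. The 95% interval reached at most 0.54 log2 either side of an estimate, for CA1 in St rats, and 0.22 in CRTX in St rats.

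The genes with the smallest lineage p are given by area. In CA1, Grin2b was higher in Vin by 0.19 ± 0.06 averaged over stress (SE, adjusted p = 0.99). Its values were 10.07, 10.21 and 10.09 in St-Vin arrays, against 9.89 and 9.92 in St-Con arrays, which did not overlap, and 10.00, 10.02 and 9.83 in NSt-Vin arrays, against 9.87, 9.87 and 9.64 in NSt-Con arrays, which did. In CA1 St rats, 11.7% of probe sets lay wholly above in Vin, so 1 of 10 members was near the background. The St-Vin and the used St-Con arrays were scanned on different days, so lineage in CA1 St rats and scan day cannot be told apart. The average over stress and the pairs of stressed dyad groups share this limit. The Vin pool exceeded the Con pool in 5 of 5 CA1 dyad groups, by 0.13 to 0.29. Without the choroid-rich arrays the average was 0.15.

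In CRTX, Gria3 read 10.88, 10.88 and 10.86 in St-Vin arrays, against 10.71, 10.74 and 10.73 in St-Con arrays. The groups did not overlap, as in 4.27% of probe sets, and the difference was 0.15 ± 0.05 with an adjusted p of 0.83. All these arrays were scanned on 1 day. In BLA, Grin2a read 9.47, 9.34 and 9.19 in NSt-Vin arrays, against 9.49, 9.87 and 9.47 in NSt-Con arrays, a difference of -0.28 ± 0.12 with overlap and an adjusted p of 1. NSt-Con 2 stood above the rest, and it also had the highest CA1 and dentate lists of the BLA arrays. These lists read 8.77 and 7.16 there, against at most 8.515 and 6.93 in the other BLA arrays, and their part was not tested. Cacng2 had the smallest p for NSt-Vin against NSt-Con in CRTX (8.44 and 8.18, against 8.17, 8.05 and 8.28; adjusted p = 0.94), and Gria1 for St-Vin against St-Con in BLA (11.18, 11.27 and 11.38, against 11.10, 11.19 and 11.14; adjusted p = 1). Both overlapped.

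In CA3 of NSt rats, 10 of 10 members had a higher mean in Vin and none passed the test. Their median difference was 0.08 (0.00 over all probe sets), led by Cacng2, Grin1 and Grin2a. Of the 53 other synapse genes, 45 were higher too, with a median of 0.09, and none passed. The 7 neuron markers averaged 11.37, 11.33 and 11.15 in NSt-Vin arrays, against 11.20, 11.18 and 11.13 in NSt-Con arrays. NSt-Con 3 was rich in choroid markers, and the part of tissue composition was not tested. Cacng2 read 8.31, 8.31 and 7.97 in NSt-Vin arrays, against 7.93, 8.01 and 7.88 in NSt-Con arrays, a difference of 0.26 ± 0.09 (adjusted p = 0.85). Gria2, Gria3 and Grin1 did not overlap between these groups, 3 of 10 members, beside 4.43% of probe sets that lay wholly above. In St rats the direction was opposite for 7 members. Gria2, Gria3 and Gria4 lay wholly below in St-Vin, 3 of 10, beside 5.57% of probe sets. There, 6 of the 53 other synapse genes were higher in St-Vin, with a median difference of -0.06. Gria4 read 10.00, 10.04 and 9.82 in St-Vin arrays, against 10.09, 10.12 and 10.13 in St-Con arrays (-0.16 ± 0.06, adjusted p = 0.996). The difference between the lineage differences, St minus NSt, was -0.22 ± 0.07 for Gria3, -0.25 ± 0.09 for Grin1 and -0.30 ± 0.12 for Grin2a, with an adjusted p of 0.75 for each, and 0% of probe sets passed.

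After restraint stress in CA3, St-Vin means were lower than NSt-Vin means and the differences did not pass the adjusted test. The mean of St-Vin lay below NSt-Vin for 9 of 10 members, with a median difference of -0.16, against -0.01 over all probe sets. Gria3 read 10.74, 10.66 and 10.65 in St-Vin arrays, against 10.86, 10.87 and 10.90 in NSt-Vin arrays. Grin1 read 10.14, 10.04 and 9.95 in St-Vin arrays, against 10.40, 10.21 and 10.21 in NSt-Vin arrays. These groups did not overlap, nor did those of Gria2 and Gria4, 4 of 10 members, where 10.3% of probe sets lay wholly below. The differences were -0.19 ± 0.05 for Gria3, -0.18 ± 0.06 for Gria4, -0.23 ± 0.07 for Grin1 and -0.22 ± 0.08 for Grin2a, with adjusted p-values from 0.24 to 0.30, 0 of 10 past the threshold and 0% of probe sets called. After quantile normalization of all arrays the Gria3 difference was -0.10.

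Of the 53 other synapse genes, 4 were higher and 49 lower in the same CA3 comparison, with a median of -0.15, and 0 of 53 passed. Neuron markers (7 genes) averaged 11.15 to 11.18 in St-Vin arrays, against 11.15 to 11.37 in NSt-Vin arrays, and dentate granule markers 7.82 to 8.73, against 7.70 to 8.70. The part of tissue composition was not tested. In Con rats, St-Con and NSt-Con overlapped for all 10 members in CA3, and the median difference was 0.01. Cacng2 had the smallest p in that comparison (0.10 ± 0.09, adjusted p = 0.997).

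**Figure D3:**
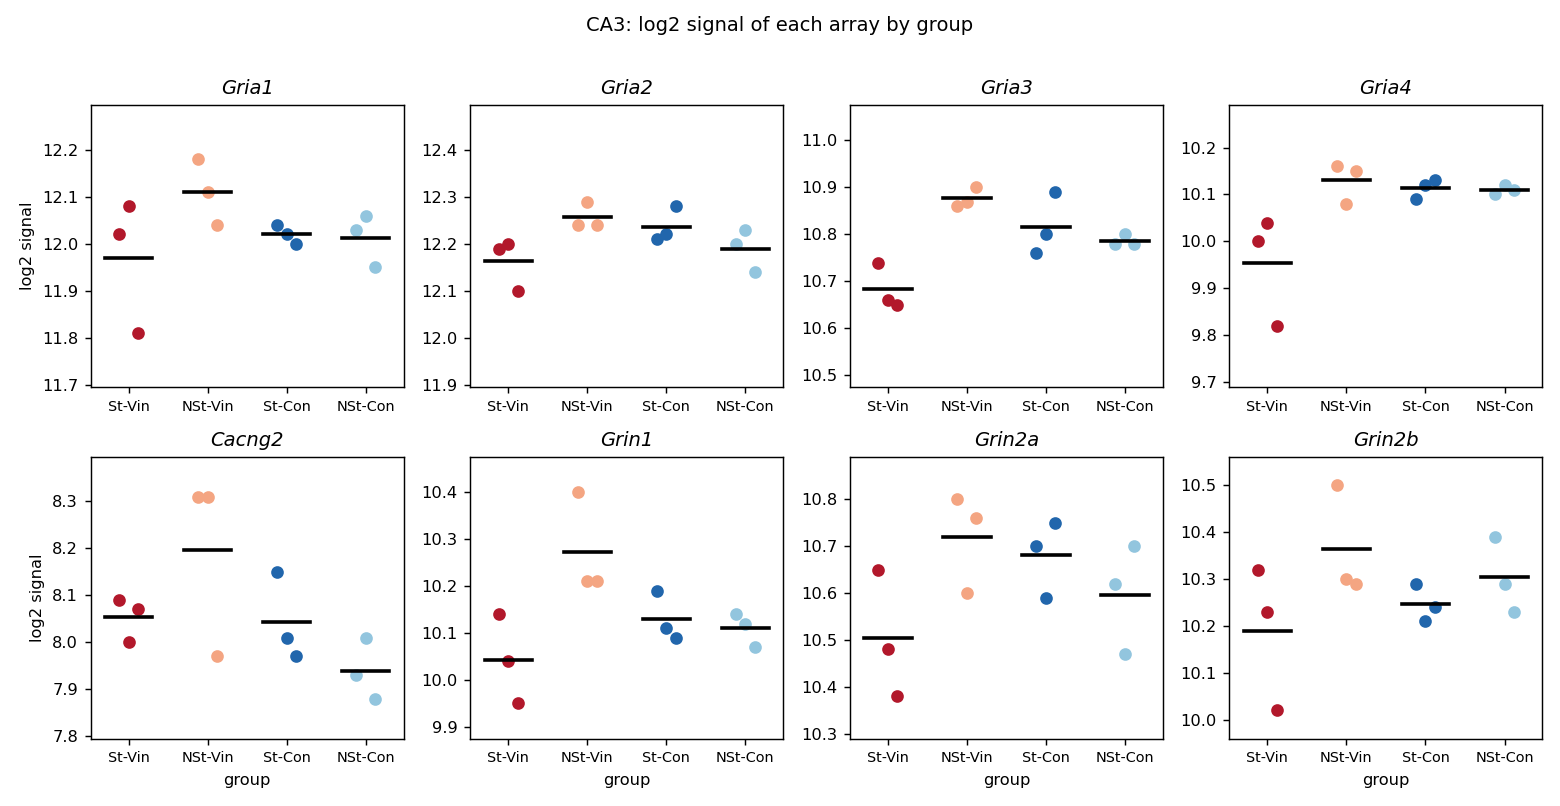
Log2 signal of each CA3 array (y axis) in the 4 groups (x axis), with 3 arrays per group, black lines at the means and the same number of log2 units in every panel. The 3 St-Vin arrays lie below the 3 NSt-Vin arrays for Gria2, Gria3, Gria4 and Grin1, and no difference passed the test over all probe sets.

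The receptor gene nearest to the threshold was Grin2c in CA1. It read 7.82, 7.88 and 7.92 in St-Vin arrays, against 8.17, 8.13 and 8.26 in NSt-Vin arrays, and 7.90 and 8.02 in St-Con arrays, against 8.07, 8.20 and 7.98 in NSt-Con arrays. The Vin groups did not overlap, while the Con groups did. The difference was -0.31 ± 0.07 in Vin rats (adjusted p = 0.073, 0 of 10 members past, 0.505% of probe sets called) and -0.12 in Con rats, and the interaction had an adjusted p of 0.97. Among the arrays used, the 3 CA1 St-Vin arrays had a scan day that no other group held (the unused array CA1 St-Con 3 was also scanned then), so stress in CA1 Vin rats and scan day cannot be told apart. Of all probe sets, 16.5% lay wholly below in this comparison and 8.76% wholly above, where Grin2b was the 1 member. The 6 astrocyte markers averaged 9.62 to 9.70 in St-Vin arrays, against 9.81 to 10.07 in NSt-Vin arrays, and their part was not tested. The adjusted limma p of Grin2c was 0.032 with all 48 arrays, 0.036 without NSt-Con replicate 3 and 0.038 in 1 fit of all areas. In that fit 2 members passed, and the share of all probe sets is not given here. The fit of 48 arrays counts CA1 St-Con 3, which adds no measurement. Under the other settings, no member passed in this comparison.

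Gria1 in CA1 was lower in St-Vin than in NSt-Vin by 0.41 ± 0.19 (adjusted p = 0.26), with overlapping arrays (11.06, 11.42 and 11.64, against 11.44, 11.88 and 12.03). In Con rats of CA1, Gria4 had the smallest stress p, at 10.09 and 9.96 in St-Con arrays, against 9.98, 9.77 and 9.31 in NSt-Con arrays (0.34 ± 0.18, adjusted p = 0.996), and the lowest of these arrays was rich in choroid markers. In CRTX, 174 probe sets (0.636%) were called for St-Con against NSt-Con and none was a receptor gene. Gria3 had the smallest p there, at 10.71, 10.74 and 10.73 in St-Con arrays, against 10.77, 10.85 and 10.78 in NSt-Con arrays, with an adjusted p of 0.44, and these groups lay on different scan days. The groups did not overlap, as in 13.3% of probe sets. Cacng2 had the smallest p for St-Vin against NSt-Vin in CRTX, at 8.17, 8.20 and 7.83, against 8.44 and 8.18 (-0.24 ± 0.11, adjusted p = 0.998). The NSt-Vin array at 8.18 shared a scan day with the St-Vin arrays, and the array at 8.44 did not. Averaged over lineage, 0 of 10 members passed in CRTX, beside 0.00731% of probe sets (0.00366% in each direction). In BLA, Gria1 and Grin2b lay wholly below in St-Con, 2 of 10, beside 3.58% of probe sets, and neither passed the test. Grin2a had the smallest p in that comparison (-0.25 ± 0.12, adjusted p = 0.997), and Gria3 for St-Vin against NSt-Vin in BLA (-0.10 ± 0.07, adjusted p = 1.00). Gria1 read 11.10, 11.19 and 11.14 in BLA St-Con arrays, against 11.20, 11.45 and 11.34 in NSt-Con arrays. The Grin2a difference of St-Con again included NSt-Con 2, the BLA array highest in Grin2a and in the CA1 list.

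**Figure D4:**
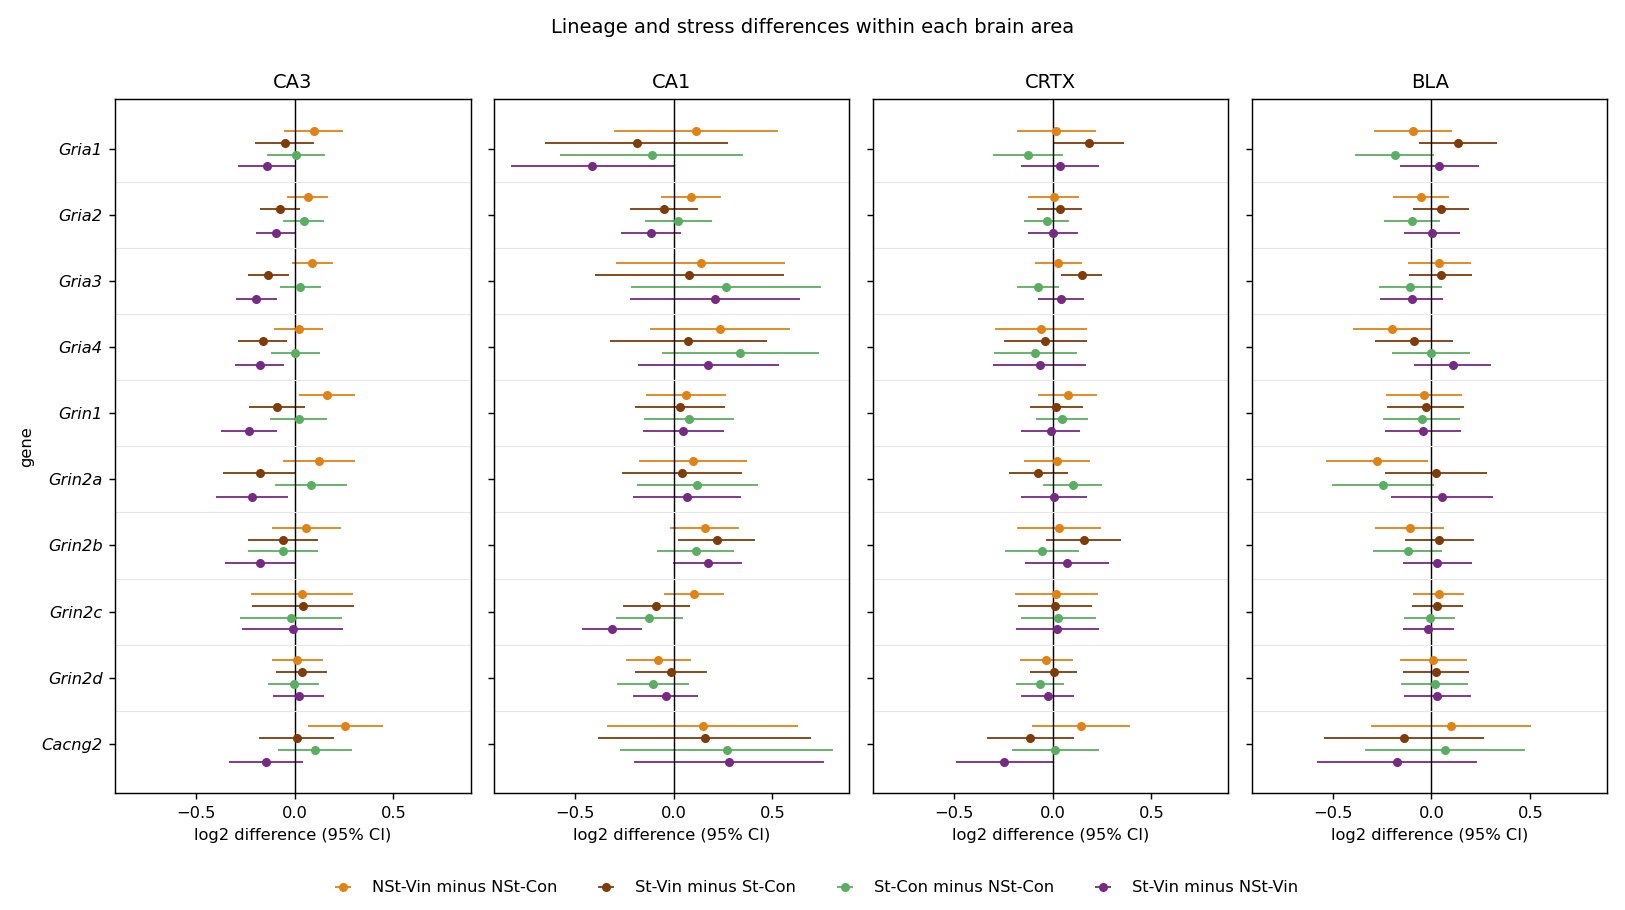
Log2 differences of the 10 genes (rows) in the 4 areas (panels) on the x axis, with 95% confidence intervals from the limma fit of each area, for the lineage difference in NSt and St rats and the stress difference in Con and Vin rats. Intervals are widest in CA1 for Gria1, Gria2, Gria3, Gria4, Cacng2, Grin1 and Grin2a, and in CA3 for Grin2c, and no difference passed an adjusted p of 0.05.

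Averaged over the 4 areas of the 10 pools measured in all of them, 0 of 10 members passed in any comparison, beside 0% of probe sets. Pairing cage mates, the Vin minus Con difference averaged over areas had its largest mean for Gria3, at 0.06 ± 0.05 (SD, 6 dyad groups). It was positive in 5 of 6 dyad groups and in 18 of 22 pairs. The 4 pairs lower in Vin included all 3 stressed CA3 pairs, at -0.24 to -0.02. The exact two-sided sign-flip test gave p = 0.094 for Gria3, and 0.78 after adjustment over the 10 genes; 6 dyad groups allow no p below 0.03125. Grin2b was also higher in 18 of 22 pairs, by 0.05 on average (exact p = 0.25). In the limma F tests of whether a lineage or stress difference depends on area, 0 of 10 members passed. The smallest adjusted p was 0.21, for the stress difference of Gria4, where 0.907% of probe sets passed. Gria3, Gria4 and Grin2b were the members with an unadjusted p under 0.05 in that limma F test, 3 of 10 beside 17.6% of probe sets, with adjusted p-values of 0.21, 0.21 and 0.23. Stress and scan day coincided in CRTX Con and CA1 Vin arrays, but not in BLA or CA3. An area dependence of the stress difference therefore cannot be told apart from scan day. The other synapse genes gave 0 of 53 past the threshold in every lineage and stress comparison.

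Some transcripts followed single receptor genes closely over the 46 arrays. Relative to the array median, Gria1 was most like Kit (Pearson r = 0.97), Gria3 most like Cntn4 (0.96), Grin1 most like Mapk8ip3 (0.97) and Cacng2 most like Ugcg (0.97). Grin2c was most like Entpd2 and Gja1 (0.93 and 0.92), and Gja1 encodes connexin 43 of astrocytes. Grin2d was most like Tspan32 (0.96) and the olfactory receptor gene Or10d4 (0.94). These values mostly repeat the differences between areas. In deviations from the mean of each area and group, Gria1 was most like Cacng8 (0.83), an auxiliary subunit of hippocampal AMPA receptors, Gria3 most like Rap2a (0.90), Grin1 most like Ppp2r5d (0.88) and Cacng2 most like Robo2 (0.91). All arrays share their scaling within an area, and no test was made.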

How the data were processed

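RNA pools of 4 rats were hybridised to Affymetrix whole-transcript arrays, and the authors deposited log2 values per probe set, made with Partek and RMA per the submitters' processing notes; versions, background settings and the scope of normalization are not stated there. Of the 27342 probe sets, 15097 had 1 gene symbol. The members and gene lists were chosen with earlier results of these data known. All 10 members were named, with the member of smallest p where none passed. Values were tested with limma 3.58.1 (R 4.3.3, lmFit and eBayes), two-sided, with Benjamini-Hochberg adjustment over all probe sets and a threshold of 0.05. Each area was fitted with its 4 groups, and areas were compared with the pool as a block. Centring, quantile normalization, a filter at the 30th percentile, all 48 arrays, blocks and omitted arrays were alternatives. Scripts were tested on simulated data. Dyad groups pair the Vin and Con pools per the labels: deviations of paired pools correlated above 0.1 in 6 of 6 BLA, 3 of 5 CRTX, 5 of 5 CA1 and 5 of 6 CA3 pairs. The number of arrays limits the precision.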

Additional observations from a re-analysis of the deposited data

How the results depend on the processing

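Within areas, 540 of 544 counts of members past the threshold kept their value. The exceptions were in CA1. St-Vin against NSt-Vin had 1 member with all 48 arrays and 2 in 1 fit of all areas. It had 0 to 1 when arrays were left out in turn. Stress averaged over lineage had 1 with all 48 arrays. The shares of all probe sets called under these settings are not given here. The stress average of Cacng2 in CRTX was 0.08 with scan day as a block, against -0.12. With the dyad group as a replicate block, no call of a member changed, and the lineage average of Grin2b in CA1 was 0.20 (adjusted p = 0.13). Between areas, 1043 of 1120 member values kept direction and call. Under centring, members lower numbered 3 in CRTX against BLA and 1 in CA3 against BLA, beside 22.9% and 30.2% of probe sets. They numbered 4 in CA1 and 4 in CA3 against CRTX, beside 40.9% and 49.8%. In CA3 against CA1, 5 were higher, beside 24.8%. Under quantile normalization, 2 were higher and 2 lower in CA1 than in BLA, beside 35% and 34.5% of probe sets. In CA3 against BLA, 4 were higher and 3 lower, beside 36% and 35.6%. Against CRTX, 4 were lower in CA1 and 4 in CA3, beside 32.8% and 36.4%. With scan day 1 alone 3 were higher in CRTX than in BLA, in striatum-poor dyad groups 2 were lower in CA1 than in BLA, and without choroid-rich arrays 1 was lower in CA1 than in CRTX. Leaving arrays out gave 1 to 3 lower in CA1 and 0 to 1 lower in CA3 than in CRTX. For these subsets of arrays, the shares over all probe sets are not given here. The direction turned under centring for CRTX against BLA (Gria2 0.22, Grin2b 0.039), CA1 against BLA (Gria3 -0.0079), CA3 against BLA (Gria3 -0.12, Grin2d -0.15), CA1 against CRTX (Gria2 -0.048), CA3 against CRTX (Gria4 -0.55, Grin1 -0.36) and CA3 against CA1 (Gria3 -0.11, Gria4 -0.092). It turned under quantile normalization for CA1 against BLA (Gria2 -0.02, Gria3 -0.23, Gria4 -0.053, Grin1 -7.30e-05, Grin2b -0.053), CA3 against BLA (Gria3 -0.31, Gria4 -0.15, Grin2d -0.11), CA3 against CRTX (Gria4 -0.44, Grin1 -0.26) and CA3 against CA1 (Gria3 -0.088, Gria4 -0.094). Gria3 in CA1 against BLA was -0.22 in striatum-poor dyad groups and -0.014 to 0.091 when arrays were left out, and Gria4 in CA1 against CRTX was 0.0024 without choroid-rich arrays. The causes were not tested. Not run were a mean over probe sets, since each member had 1, and a scan day block in CA1, where, of the arrays used, St-Vin alone held its day. BLA and CA3 each lay on 1 scan day.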
